A study of Mus musculus with 2 samples.

Results

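The R-spondin branch of WNT signalling was followed in growing mouse hair follicles through 5 genes, the receptors Lgr4, Lgr5 and Lgr6 and the ubiquitin ligases Znrf3 and Rnf43. The genes were taken by gene symbol and are 5 of the 31053 genes counted. The material was 1 group of 2 single-cell libraries, replicate 1 and replicate 2, from wild type mouse skin of strain C57BL/6;CD1 at postnatal day 32, in anagen, when hairs grow. Cells had been sorted by the surface protein CD34 and by H2BGFP, a green fluorescent histone made under the K14 (keratin 14) promoter, so that keratinocytes of the follicle outnumber all other cells. There is no second condition, and neither the number of animals nor whether the libraries came from different animals is given in the sources used here. Differences described are therefore between cell states within these libraries. Their p-values measure how far such differences vary between 2 libraries, a spread that may be technical. A shift shared by all clusters of a library is taken out by the fit and is not in that spread.

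R-spondins are secreted proteins that bind LGR4, LGR5 or LGR6 together with ZNRF3 or RNF43. Both ligases sit in the membrane and mark Frizzled WNT receptors for removal. R-spondin binding takes the ligases off the surface, more Frizzled stays there, and WNT signals are received more strongly. In mouse follicles Lgr5 is known as a marker of the lower bulge, hair germ and growing outer root sheath, and Lgr6 as a marker of the isthmus above the bulge. Znrf3 and Rnf43 are themselves WNT target genes in mouse intestine.

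In the GENCODE M21 annotation of GRCm38, Lgr6 lies on chromosome 1 from 134983301 to 135105276, minus strand, and Lgr4 on chromosome 2 from 109917647 to 110014257, plus strand. Lgr5 lies on chromosome 10 from 115450311 to 115587780, minus strand. The ligase genes share chromosome 11, with Znrf3 from 5276324 to 5444847 on the minus strand and Rnf43 from 87662722 to 87735539 on the plus strand. No exon of the 5 genes overlapped an exon of another annotated gene.

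Promoter sequence for Lgr4, Lgr6 and Rnf43 was available from RefSeq (GRCm38.p6), and the 2 shown are those of the receptors, since Lgr4 was above 0 in every keratinocyte cluster and Lgr6 at or near 0 in most. Each runs 5′ to 3′ on the gene's strand and stops at the most upstream annotated start. Lgr4 is chr2:109917397-109917646, plus strand, and Lgr6 is chr1:135105375-135105526, minus strand. Capitals mark CCAAT (or ATTGG), the CCAAT box word.
Lgr4: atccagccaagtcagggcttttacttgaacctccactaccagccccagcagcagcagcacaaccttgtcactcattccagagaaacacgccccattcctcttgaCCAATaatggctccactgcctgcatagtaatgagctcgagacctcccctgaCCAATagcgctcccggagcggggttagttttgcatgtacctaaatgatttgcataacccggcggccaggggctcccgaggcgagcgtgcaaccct
Lgr6: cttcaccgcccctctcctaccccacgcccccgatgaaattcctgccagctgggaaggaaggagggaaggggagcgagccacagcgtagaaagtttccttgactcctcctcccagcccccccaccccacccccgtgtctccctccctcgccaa

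The Lgr4 stretch holds 2 CCAAT words and the Lgr6 stretch 0, and 33.8% of all 32851 RefSeq promoter windows of 250 bases before a start hold at least 1. The TCF/LEF word CTTTGA, read on either strand, was in 0 of the 4 windows held for Lgr4, Lgr6 and Rnf43, and in 13.8% of all windows. The SOX word AACAAT, or ATTGTT on the other strand, occurred once, in the 250-base window of Lgr6 but downstream of the stretch shown, and in 9.42% of all windows. G and C made up 55.6% of the Lgr4 stretch and 65.1% of the Lgr6 stretch. These are matches of letters and no more.

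After the filters and removal of called doublets, 3703 cells of replicate 1 and 2910 of replicate 2 remained, with medians of 9757 and 9601 UMIs (unique molecular identifiers, 1 per captured RNA molecule). A total of 11 cell barcodes occurred in both libraries. Clustering on genes other than these 5 and their pathway gave 12 clusters, of which 10 were keratinocytes, 1 was fibroblast-like and 1 was immune. Of the non-cycling keratinocyte clusters, cluster 4 was bulge stem cell-like (7 of 15 markers highest there, with Krt24, Grem1 and Fst among its leading genes), and clusters 1, 2, 3 and 6 also had 7 or more of the 15 detected. Cluster 11 was upper hair follicle-like (7 of 9 markers highest there), and 6 of 7 sebaceous gland markers were highest there as well. Clusters 1 (led by Pthlh and Wfdc18), 2 (Gm20186), 3 (Gnmt and Scrg1) and 6 (Rasl11a and Fhl1) keep their numbers, since no fixed marker set named them. Clusters 7 and 8 were led by cell cycle genes, and their nearest non-cycling profiles were those of clusters 1 and 2. Cluster 9 was inner root sheath-like (6 of 7 markers highest), and cluster 5 (led by Sms and Gm973) was a deep, partly cycling cluster without a name.

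The libraries differed in makeup before any of the 5 genes was considered. Cluster 5 had 44 cells in replicate 1 and 547 in replicate 2, while cluster 1 had 979 and 364. Results that rest on cluster 5 are accordingly given by library.

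**Figure D1:**
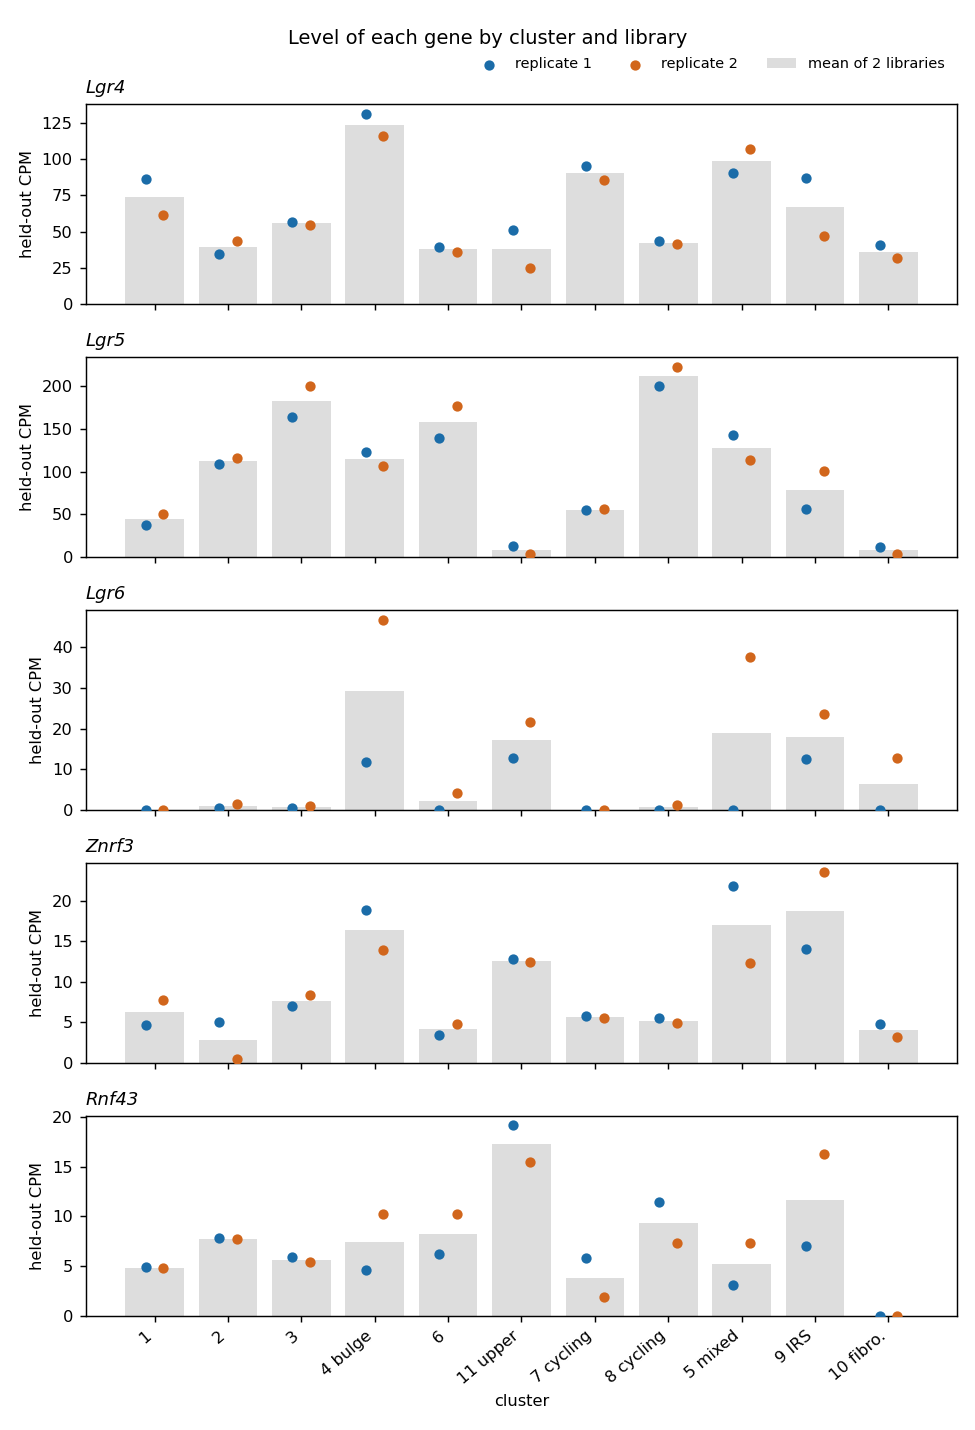
Level of each of the 5 genes in held-out counts per 1000000 held-out UMIs (CPM, vertical axes, each starting at 0) by cluster (horizontal axis). Points are the 2 libraries and bars their mean. Lgr4 and Lgr5 had points above 0 in every cluster drawn, Lgr6 points were at or under 4.22 in clusters 1, 2, 3, 6, 7 and 8, and replicate 2 stood well above replicate 1 for Lgr6 in clusters 4 and 5.

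Levels below are counts per 1000000 UMIs (CPM) from the randomly drawn part of each cell's UMIs that took no part in clustering, summed per cluster and library. Differences are log2 differences from edgeR's quasi-likelihood test on those sums with library as a term, each state against the mean of the other non-cycling states, with Benjamini-Hochberg adjustment over 11027 genes and a threshold of 0.05. Detection was counted as the percentage of cells in which 1 or more UMIs remained after thinning each to 5000 UMIs, with exact 95% binomial (Clopper-Pearson) intervals that cover counting error alone. Of the 5 genes, 4 differed among the 6 non-cycling states by the joint test (Lgr4, Lgr5, Lgr6 and Znrf3), where 35.9% of all genes tested did.

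Lgr4, the receptor known for broad expression in epithelia, was found in every keratinocyte cluster and was highest in the bulge stem cell-like cluster. Its level in cluster 4 was 131 CPM in replicate 1 and 116 in replicate 2. It was 90.2 and 107 in cluster 5, 94.998 and 85.4 in the cycling cluster 7, and 86.2 and 61.3 in cluster 1. Cluster 4 stood above cluster 5 in both libraries without overlap, whereas clusters 5, 7, 1 and 9 each overlapped the next in the order. The lowest levels were in clusters 8, 2, 11 and 6, at 42.5 ± 1.74, 39.1 ± 6.61, 37.9 ± 18.7 and 37.7 ± 2.17 CPM (mean ± SD, n = 2 libraries), and these 4 overlapped along the order.

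Lgr4 rose in cluster 4 by 1.503 ± 0.171 (log2, standard error; edgeR adjusted p = 8.142e-07), and fell in cluster 6 by 0.78 ± 0.21 (edgeR adjusted p = 0.01062). It was also called higher in cluster 1, by 0.57 ± 0.17 (edgeR adjusted p = 0.03069), a call lost in 6 of 9 alternative settings. At 5000 UMIs per cell, Lgr4 was detected in 44.5% of cluster 4 cells in replicate 1 (38.5 to 50.6) and in 45.4% in replicate 2 (39.6 to 51.3). In cluster 6 the shares were 19.9% and 14.3%, below and apart from those of cluster 4. Over all keratinocytes they were 26.9% and 28.1%. The immune cluster held it in 0 of 9 and 0 of 14 cells, and the fibroblast-like cluster in 14 of 56 and 3 of 39 cells. With 0 read as 3 counts, as elsewhere unless an exact interval is named, the immune counts allow shares of up to 33.3% and 21.4%.

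Lgr5, the receptor used to mark cycling stem cells in several epithelia, was high in clusters 8, 3 and 6 and near absent from the upper hair follicle-like cluster. Its level was 201 CPM in replicate 1 and 223 in replicate 2 in the cycling cluster 8, 165 and 201 in cluster 3, and 139 and 177 in cluster 6. Cluster 5 had 143 and 114, cluster 4 had 123 and 107, and cluster 2 had 109 and 116. Along this order each of the 6 clusters overlapped the next. Below them, with no overlap from one to the next, came cluster 9 at 55.9 CPM in replicate 1 and 101 in replicate 2, then cluster 7 at 54.5 and 55.7. Cluster 1 followed at 37.5 and 50.6 CPM, and the lowest was cluster 11 at 12.8 and 3.09. In cluster 11 the counts came from 1 of 24 cells in replicate 1, which alone held 5 UMIs, and from 2 of 38 cells in replicate 2.

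Against the other non-cycling states, Lgr5 rose in cluster 3 by 1.65 ± 0.18 (edgeR adjusted p = 4.036e-06), in cluster 6 by 1.29 ± 0.20 (edgeR adjusted p = 3.524e-05) and in cluster 2 by 0.90 ± 0.20 (edgeR adjusted p = 0.00452). It fell in cluster 11 by 4.08 ± 0.50 (edgeR adjusted p = 2.554e-06), and that low value enters the mean against which every other state was set. In cluster 1 the difference of -0.77 ± 0.26 missed the threshold (edgeR adjusted p = 0.05798). At finer resolution Lgr5 fell in both clusters led by Pthlh and Wfdc18, by 0.89 ± 0.23 in finer cluster 2 (edgeR adjusted p = 0.005609), where 16.9% of genes were called, and by 1.14 ± 0.26 in finer cluster 6 (edgeR adjusted p = 0.001254), where 20.8% were. The rise in cluster 4, 0.996 ± 0.206 (edgeR adjusted p = 0.001241), was 0.40 and not called in the largest matching cluster at finer resolution. It was 0.70 ± 0.21 and called in the other finer part of cluster 4 (edgeR adjusted p = 0.01608).

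Ratios to the pooled other non-cycling clusters of the same library, in which the small cluster 11 weighs little, gave another reading for clusters 2 and 4. Cluster 3 held 1.998 times their Lgr5 CPM in replicate 1 (95% counting interval 1.79 to 2.23) and 1.86 times in replicate 2 (1.65 to 2.101), and cluster 1 held 0.287 (0.245 to 0.334) and 0.346 (0.274 to 0.431) times. Cluster 2 was at 1.15 (1.02 to 1.29) in replicate 1 and 0.876 (0.757 to 1.01) in replicate 2. Cluster 4 was at 1.29 (1.104 to 1.51) and 0.806 (0.673 to 0.9596). The libraries thus put clusters 2 and 4 on opposite sides of the pooled rest, though the interval of cluster 2 in replicate 2 includes 1. Their calls as higher are against a mean of states that counts cluster 11 equally.

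Shares of cells with an Lgr5 UMI at equal depth followed the levels. They were 53.3% in replicate 1 and 60.1% in replicate 2 in cluster 3, 48.1% and 57.3% in cluster 6, and 57.4% and 59.7% in cluster 8. In cluster 1 they were 13.8% and 22.6%, and in cluster 7 they were 19.2% and 29.2%. The fibroblast-like cluster, which should lack the gene, held it in 1 of 56 and 1 of 39 cells, or 1.79% and 2.56%. The upper hair follicle-like shares of 4.35% and 2.70% (1 of 23 and 1 of 37 cells) were within the counting intervals of that background.

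Lgr6, the isthmus-associated receptor, was at or near 0 in most clusters and differed greatly between the libraries. In cluster 4 its level was 11.7 CPM in replicate 1 (18 held-out UMIs) and 46.9 in replicate 2 (64 UMIs). In the upper hair follicle-like cluster 11 it was 12.8 and 21.6 CPM, from 2 and 7 UMIs, and in the inner root sheath-like cluster 9 it was 12.6 and 23.5, from 9 and 13 UMIs. In cluster 5 it was 0 CPM from 44 cells in replicate 1 and 37.7 from 547 cells in replicate 2. Clusters 4, 5, 9 and 11 overlapped along the order of means. Cluster 6 came next, with 0 and 4.22 CPM, and clusters 1, 2, 3, 7 and 8 were at or under 1.44 CPM in both libraries. By held-out CPM, replicate 2 was higher than or equal to replicate 1 in every keratinocyte cluster. Cluster 3 went the other way with all UMIs, at 1.04 CPM (6 UMIs) in replicate 1 and 0.732 (3 UMIs) in replicate 2. Its shares of cells with a UMI at equal depth were 0.508% and 0.429%.

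Within each library, held-out Lgr6 CPM in cluster 4 were 30.9 times those pooled over the other non-cycling clusters in replicate 1 (95% counting interval 11.1 to 107) and 19.2 times in replicate 2 (11.4 to 34.0). The edgeR test called Lgr6 higher in cluster 4 (adjusted p = 1.636e-07) and in cluster 11 (adjusted p = 0.005258), and lower in cluster 1 (adjusted p = 0.00472), where both libraries held 0 held-out UMIs and all counts together 1 UMI. Fitted log2 values against clusters at 0 are set by the prior count and are not given. Leaving out the library term removed the cluster 1 and cluster 11 calls, and the cluster 1 call was also lost at finer resolution and with called doublets kept (adjusted p = 1 in both).

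**Figure D2:**
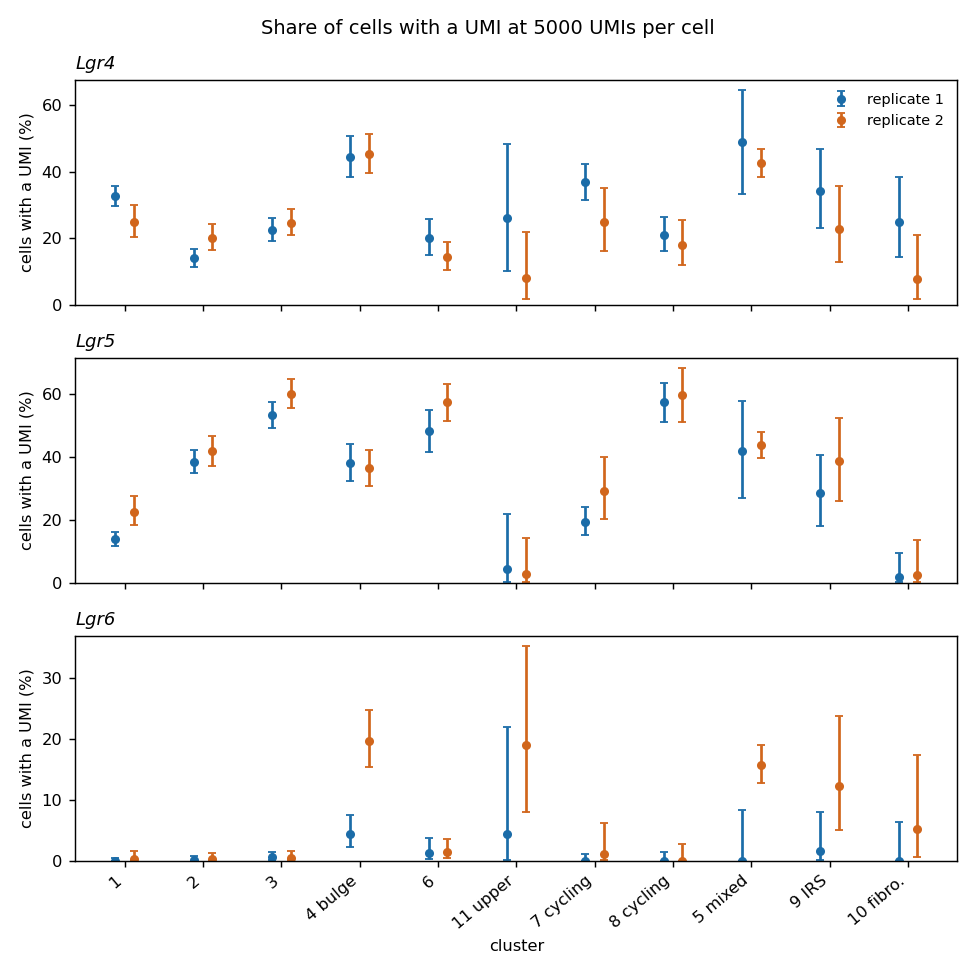
Percentage of cells holding 1 or more UMIs of Lgr4, Lgr5 and Lgr6 (vertical axes, percent, from 0) by cluster (horizontal axis) after thinning to 5000 UMIs per cell. Points are libraries and bars exact 95% binomial intervals. Lgr6 reached 19.7% in cluster 4 of replicate 2 against 4.38% in replicate 1, while Lgr4 in that cluster was 45.4% and 44.5%.

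Over all keratinocytes at 5000 UMIs, Lgr6 was detected in 21 of 3447 cells of replicate 1 and 165 of 2672 of replicate 2, which is 0.609% (interval 0.378 to 0.930) and 6.18% (5.29 to 7.16). Replicate 2 was thus 10.1 times higher. With replicate 2's share in each cluster weighted by the cluster makeup of replicate 1, the ratio was 4.14. With replicate 1's shares weighted by the makeup of replicate 2 instead, replicate 1 came to 0.829% and the ratio was 7.45. The first calculation gave 1.18 for Lgr5 and 0.906 for Lgr4. In cluster 4 alone the shares were 4.38% and 19.7%, with intervals of 2.28 to 7.53 and 15.3 to 24.7. In cluster 5, 0 of 43 cells of replicate 1 allow a share of up to 6.98% with 0 read as 3 counts (exact interval 0 to 8.22). The share in replicate 2 was 15.6% (12.6 to 19.0). The fibroblast-like cluster held Lgr6 in 0 of 56 and 2 of 39 cells (5.13%, interval 0.627 to 17.3), and the count of 0 allows up to 5.36% in replicate 1. By that measure the shares of at most 1.37% in clusters 1, 2, 3, 6, 7 and 8 cannot be told from those of the fibroblast-like cluster. In replicate 1 the same holds for every cluster, including cluster 4 at 4.38%, cluster 11 at 4.35% and cluster 9 at 1.49%. In replicate 2, clusters 5 and 9, at 15.6% and 12.3%, lay within the fibroblast-like interval, and clusters 4 and 11, at 19.7% and 18.9%, lay above its upper bound with intervals that overlapped it. Few fibroblast-like cells set these limits, and whether those cells lack Lgr6 was not tested. Within each library cluster 4 exceeded the pooled other non-cycling keratinocyte clusters by the ratios given above. The small cluster 11 weighs little in that pool, and in replicate 1 it was not below cluster 4, at 12.8 against 11.7 CPM. Cluster 1, with more cells, gives narrower intervals. It held Lgr6 in 0 of 929 cells of replicate 1 (exact interval 0 to 0.396%) and 1 of 341 of replicate 2 (0.0074 to 1.62%). The intervals of cluster 4 in both libraries, and of cluster 5 in replicate 2, lay above those of cluster 1. Why the libraries differ was not tested.

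Of the Lgr6-positive cells of replicate 1, 57.1% were in cluster 4, which held 7.95% of its thinned keratinocytes. Of those of replicate 2, 35.2% were in cluster 4 and 50.9% in cluster 5, which held 11.04% and 20.1% of its thinned keratinocytes.

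At finer resolution cluster 4 divided into parts of unlike makeup in the libraries. Finer cluster 10 (Krt24, Calml3 and Grem1) had 64 cells in replicate 1 and 280 in replicate 2, and finer cluster 11 (Nrg1, Nppc and Fst) had 224 and 36. Lgr6 was 20.3 and 52.9 CPM in finer cluster 10, and 9.45 and 11.6 CPM in finer cluster 11. Lgr4 was 145 and 127 CPM in finer cluster 10, and 125 and 46.3 in finer cluster 11, where the second value rests on 36 cells. The same fit called Lgr4, Lgr6 and Znrf3 higher in finer cluster 10, where 21.4% of the genes tested were called, and Lgr4, Lgr5, Lgr6 and Znrf3 higher in finer cluster 11, where 22.2% were. The 4 genes called in cluster 4, all higher, stand against 17.2% of all genes called there.

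Znrf3, the ligase known in mouse as a feedback target of WNT signalling, was low throughout and was highest in clusters 9, 5 and 4. Its level was 13.98 CPM in replicate 1 and 23.5 in replicate 2 in cluster 9, 21.8 and 12.3 in cluster 5, and 18.8 and 13.9 in cluster 4. These 3 clusters overlapped. Cluster 11 followed with 12.8 and 12.4, from 2 and 4 UMIs, and the remaining keratinocyte clusters lay between 0.481 and 8.29. Znrf3 rose in cluster 4 by 1.54 ± 0.36 (edgeR adjusted p = 0.003819). At equal depth it was detected in 6.57% and 5.42% of cluster 4 cells and in 2.93% and 3.41% of all keratinocytes, against 0 of 56 and 0 of 39 fibroblast-like cells, which allows up to 5.36% and 7.69%.

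Rnf43, the second ligase, was also low. Its level was 19.2 and 15.5 CPM in cluster 11, from 3 and 5 held-out UMIs, and 6.99 and 16.3 in cluster 9. Down to cluster 7, the lowest at 5.79 and 1.86 CPM, each cluster overlapped the next. The joint test over non-cycling states did not call it (edgeR adjusted p = 0.3119). It was called in that test at finer resolution (adjusted p = 0.004106), where 58.1% of all genes were, and with called doublets kept (adjusted p = 0.01591). In finer cluster 12 (148 and 109 cells, named here after its values were seen) Rnf43 was 24.2 and 16.4 CPM and rose by 1.60 ± 0.43 (edgeR adjusted p = 0.009631), where 12.8% of genes were called. Rnf43 fell in finer cluster 2, by 1.35 ± 0.41 (edgeR adjusted p = 0.02056), and in finer cluster 3, by 1.29 ± 0.45 (edgeR adjusted p = 0.03435), where 25% of genes were called. Lgr5 rose in finer cluster 12 too, by 0.82 ± 0.22 (edgeR adjusted p = 0.009541).

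By state, 2 of 5 genes in cluster 1 were called against 13.1% of all genes, in cluster 2, 1 of 5 against 9.37%, and in cluster 3, 1 of 5 against 8.67%. In cluster 6, 2 of 5 were called against 17.3%, and in cluster 11, 2 of 5 against 12.2%. In cluster 4, 4 were called, all higher, but Lgr5 there was below the pooled rest in replicate 2. At finer resolution Lgr5 was called higher in finer cluster 11 (edgeR adjusted p = 0.01608) but not in finer cluster 10. The median difference over the 5 genes in cluster 4 was 1.503 against 0.071 over all genes.

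Cycling and non-cycling clusters were compared next. Of the 5 genes 1 was called, Lgr5, which rose by 0.52 ± 0.17 (edgeR adjusted p = 0.03616), against 18.1% of all genes. The call was absent with DESeq2, without the library term, at finer resolution and with called doublets kept. The pooled value covers unlike cycling clusters, since Lgr5 was 54.5 and 55.7 CPM in cluster 7 but 201 and 223 in cluster 8. Set against its nearest non-cycling cluster, cluster 8 exceeded cluster 2 by 0.70 ± 0.21 (edgeR adjusted p = 0.04315), where 7.54% of genes were called. This call was lost with all UMIs summed and without the library term. The profile of cluster 8 was almost as near to clusters 3 and 6 (Pearson's r = 0.981 and 0.975) as to cluster 2 (0.986). Lgr5 in cluster 3, at 165 and 201 CPM, overlapped that of cluster 8, and this pair was not tested. Between cluster 7 and cluster 1, Lgr5 differed by 0.23 ± 0.25 (edgeR adjusted p = 0.7814), and the other 4 genes had adjusted p-values from 0.8794 to 1, where 3.71% of all genes were called.

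The mixed clusters were compared with the same non-cycling mean. In cluster 5, 3 of 5 genes were called higher against 20.1% of all genes called, with Lgr4 up by 0.87 ± 0.18 (edgeR adjusted p = 0.001075) and Lgr5 up by 0.74 ± 0.21 (edgeR adjusted p = 0.01232). The third, Lgr6 (edgeR adjusted p = 6.48e-06), rests on replicate 2. Without replicate 2 the difference was -1.36 with no test, a value largely set by the prior count. Cluster 5 had 0 held-out Lgr6 UMIs in replicate 1, so it is no measured fall. In the inner root sheath-like cluster 9, 2 of 5 were called higher against 22.5%, Lgr6 (edgeR adjusted p = 0.0003236) and Znrf3, which rose by 1.35 ± 0.44 (edgeR adjusted p = 0.02929). Both clusters were deeper than the rest, with medians of 15478 and 18970.5 UMIs per cell, and the part of depth in these levels was not tested.

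Whether Lgr5 and Lgr6 occurred in the same cells was examined at 5000 UMIs per cell. The number of cells with both was set against the number given by the product of the shares within each cluster and library, summed. Replicate 1 had 9 cells with both against 8.31 (ratio 1.08, counting interval 0.495 to 2.06), and replicate 2 had 62 against 65.0 (ratio 0.953, 0.731 to 1.22). Within clusters, neither library departed from the product by more than counting error. This expectation takes out any separation of Lgr5 and Lgr6 between clusters. With the expected number formed over all keratinocytes of a library, the ratios were 1.253 in replicate 1 and 0.857 in replicate 2. Among non-cycling cells of replicate 2, Lgr5 was in 23 of 73 Lgr6-positive cells (31.5%, interval 21.1 to 43.4) against 44.1% of the rest. Replicate 1 went the other way, with 9 of 20 against 33.7%.

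Most Lgr6-positive cells had no Lgr5 UMI at this depth. Lgr5 was detected in 42.9% of Lgr6-positive cells of replicate 1 (9 of 21) and 37.6% of replicate 2 (62 of 165), against 34.2% and 44.3% of Lgr6-negative cells. In cluster 4 it was detected in 6 of 12 and 18 of 58 Lgr6-positive cells, against 37.4% and 37.6% of the rest. In cluster 5 of replicate 2 it was in 36 of 84, or 42.9% (interval 32.1 to 54.1), against 43.8%. In the upper hair follicle-like cluster, Lgr6-positive cells held Lgr5 in 0 of 1 and 0 of 7 cells, and Lgr5 was rare in that whole cluster. Conversely, 0.763% of Lgr5-positive cells of replicate 1 and 5.29% of those of replicate 2 had an Lgr6 UMI.

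**Figure D3:**
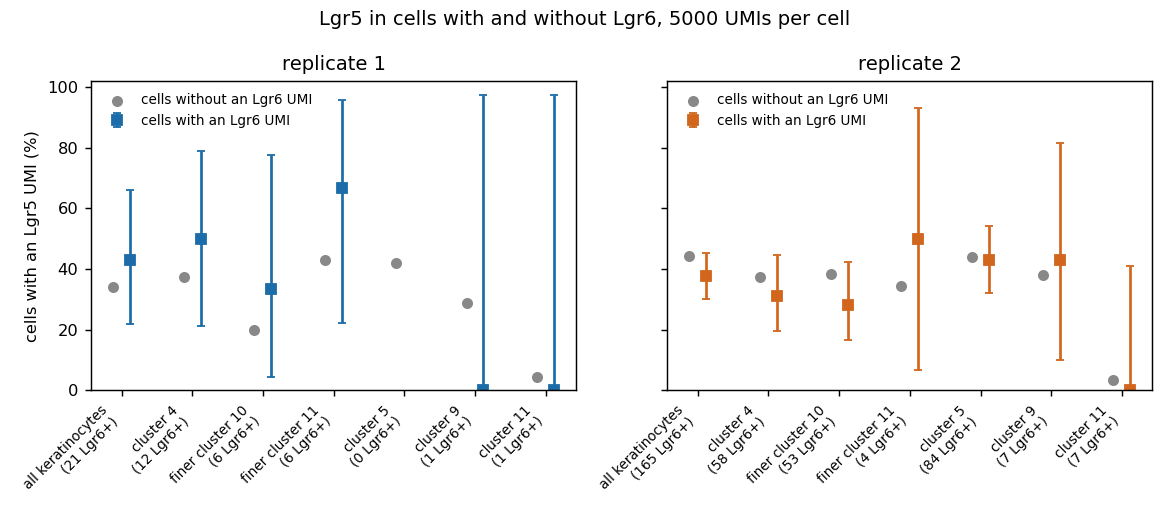
Share of cells with an Lgr5 UMI (vertical axis, percent) among cells with an Lgr6 UMI (squares, bars exact 95% binomial intervals) and without one (grey circles), by cluster (horizontal axis, number of Lgr6-positive cells in brackets) and library (panels). In all keratinocytes of replicate 2 the shares were 37.6% and 44.3%, and in cluster 5 they were 42.9% and 43.8%.

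The other 9 pairs of the 5 genes were treated alike, and all 10 pairs are a description with no test. Lgr4 and Lgr5 were found together in 307 cells of replicate 1 and 337 of replicate 2, at 1.06 and 1.05 times the product. Lgr4 and Znrf3 shared 36 and 40 cells, at 1.20 and 1.33 times, with intervals of 0.838 to 1.66 and 0.951 to 1.81. Lgr6 and Znrf3 shared 1 and 16 cells, at 0.907 and 1.61 times, the latter from 0.918 to 2.61. Lgr4 and Lgr6 went in opposite directions in the libraries, at 1.63 and 0.863. Of the 20 intervals for pair and library, all 20 included 1.

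**Figure D4:**
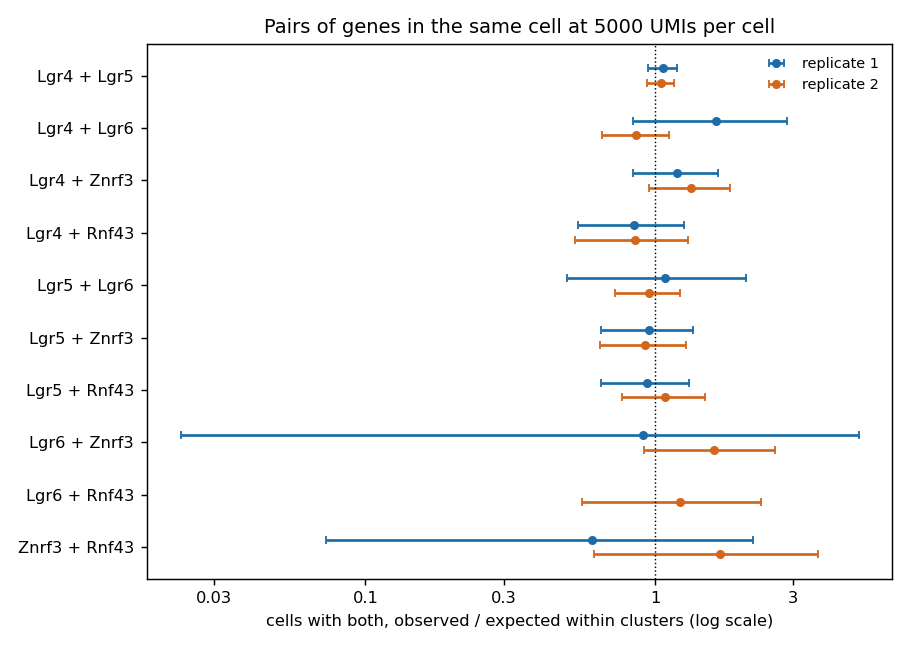
Cells with both genes of a pair, observed over expected within clusters (horizontal axis, log scale), for the 10 pairs (vertical axis) and 2 libraries. Bars are 95% counting intervals, the dotted line is 1, and Lgr6 with Rnf43 in replicate 1 is not drawn because 0 cells held both. Every interval drawn crosses 1, as for Lgr5 with Lgr6 at 1.08 and 0.953.

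A receptor and a ligase were seldom seen together at this depth. At least 1 of the 3 receptors was detected in 52.3% of keratinocytes of replicate 1 and 61.9% of replicate 2, and at least 1 ligase in 6.03% and 6.32%. A ligase was detected in 5.99% and 7.07% of receptor-positive cells and in 6.08% and 5.11% of receptor-negative cells.

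The remaining genes of the pathway were read as lists. Of 24 genes for R-spondins, Frizzled receptors, co-receptors and their partners, 21 could be tested and 13 were called in the joint test. Of 15 WNT target genes, 11 could be tested and 10 were called, against 35.9% of all genes. In cluster 4, 7 targets were higher and 0 lower (median difference 2.06 against 0.07 over all genes), where 17.2% of all genes were called, and 5 of the 21 receptor-side genes were higher and 1 lower (median 0.32). In cluster 6, 0 targets were higher and 3 lower (median -1.11), against 17.3% of all genes called. The target medians take in fitted values set by the prior count, such as that of Tnfrsf19, at 0 CPM in cluster 6. They are thus no measure of a shift of all targets. Cluster 1 had 2 higher and 2 lower against 13.1%, and cluster 11 had 2 higher and 1 lower against 12.2%. Clusters 2 and 3 each had 1 higher and 0 lower, against 9.37% and 8.67%. In cluster 5, 5 targets were higher and 0 lower against 20.1%, and in cluster 9, 5 were higher and 4 lower against 22.5%. Between cycling and non-cycling clusters 1 target was higher and 1 lower, a share of 11 near the 18.1% of all genes called. Receptor-side genes were called in the other clusters too, against the same shares of all genes. Cluster 6 had 4 higher and 2 lower, cluster 3 had 4 and 0, cluster 1 had 3 and 2, and cluster 2 had 2 and 1. Cluster 11 had 2 higher and 3 lower, cluster 5 had 1 and 5, and cluster 9 had 3 and 6.

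**Figure D5:**
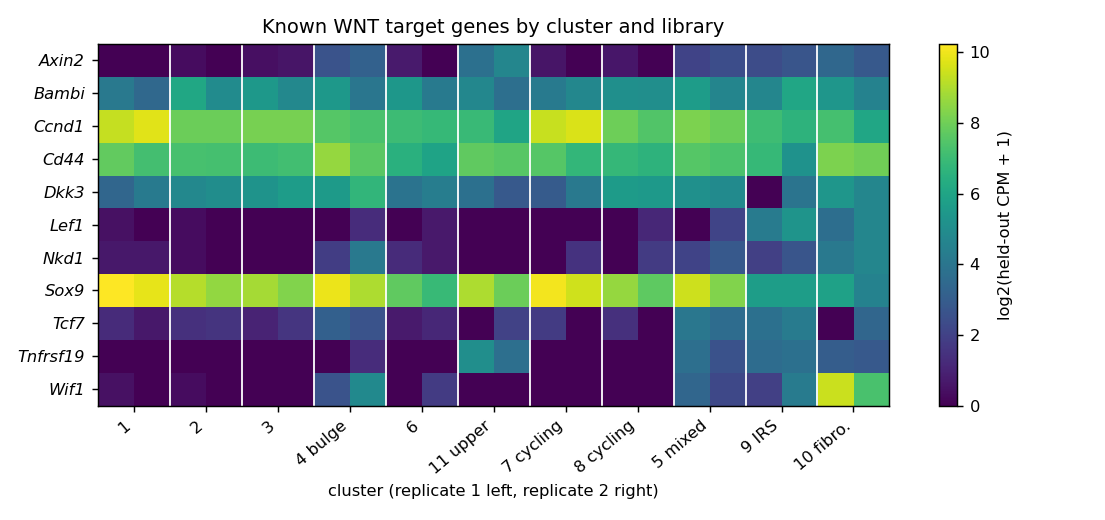
Level of the 11 tested WNT target genes (rows) by cluster, with replicate 1 on the left and replicate 2 on the right of each cluster (horizontal axis), as log2(held-out CPM + 1) in color. Wif1 stood at 5.20 and 27.8 CPM in cluster 4 and was at or under 2.41 CPM in the other non-cycling clusters, and it was far higher in the fibroblast-like cluster (687 and 155).

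The list members with the largest differences lay in clusters 4 and 11. They were picked by fitted log2 difference, which is set by the prior count where other clusters are at 0. Cluster 11 had 24 and 38 cells, and 12.8 CPM in its replicate 1 stands for 2 held-out UMIs. Its values here and for the ligand and receptor genes below thus rest on few UMIs. Axin2, a feedback inhibitor and general WNT target, was 12.8 and 24.7 CPM in cluster 11 and 5.20 and 8.05 in cluster 4, and at most 0.688 in the other non-cycling clusters. Tnfrsf19 (TROY), a receptor that is a WNT target, was 32.0 and 12.4 CPM in cluster 11 and at most 1.46 in the other non-cycling clusters. Neither gene was confined to these states. Tnfrsf19 was 12.4 and 4.96 CPM in cluster 5, 11.2 and 12.6 in cluster 9, and 7.21 and 6.32 in the fibroblast-like cluster. Axin2 was 3.11 and 4.31 CPM in cluster 5, 4.19 and 5.42 in cluster 9, and 9.61 and 6.32 in the fibroblast-like cluster. Wif1, a secreted WNT inhibitor, rose in cluster 4 (edgeR adjusted p = 0.0004417). Its fibroblast-like level is the highest of all clusters, and the part of RNA from those cells was not tested.

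On the ligand and receptor side, Rspo1, which encodes an R-spondin, was 32.0 and 44.4 CPM in cluster 3, 18.8 and 1.46 in cluster 4, and 0 in both libraries of cluster 11. Rspo3, another R-spondin, was 0 and 18.6 CPM in cluster 11 and 93.7 and 53.7 in the fibroblast-like cluster. Fzd2, a Frizzled receptor, was 171 and 217 CPM in cluster 3 and 163 and 253 in cluster 4, and fell in cluster 11 by 2.92 ± 0.37 (edgeR adjusted p = 4.15e-06) to 6.39 and 18.6 CPM. Cluster 11 thus held less Lgr5 and less Fzd2 than the mean of the other non-cycling states.

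The genes whose levels over the 11 fitted clusters were most like each member were found by Pearson's correlation of log2 CPM among genes with a mean of at least 20 CPM. The clusters share their libraries, so these values are a description. The 11 are the keratinocyte clusters and the fibroblast-like cluster, where Rnf43 was at 0 CPM in both libraries. They are thus not a measure of likeness among keratinocyte clusters alone, and how much of each correlation rests on the fibroblast-like cluster was not tested. For Lgr5 the nearest were Tbx1 (r = 0.96, and 0.94 and 0.96 within the libraries), Hscb, Ccdc106, Bnc1 and B9d1. TBX1 is a T-box transcription factor. For Lgr6 they were Arl4a (r = 0.95, and 0.68 and 0.92 within the libraries), Mt2, Mt1, Sms and Gnl1, of which Mt1 and Mt2 encode metal-binding metallothioneins. For Lgr4 they were Zfp1 (r = 0.90, but 0.30 within replicate 2), Gcat, Gatad2a, Rab6a and mt-Nd4l. For Znrf3 they were Wnt4 (r = 0.93, and 0.76 and 0.87 within the libraries), a WNT ligand gene, then Eef1d, Skp1a, Hoxa7 and Larp1. For Rnf43 they were Prmt7 (r = 0.95), 2310030G06Rik, Pawr, Eif2d and Eif3m. Among the members themselves the highest correlations were 0.76 for Lgr6 with Znrf3 and 0.62 for Lgr4 with Znrf3, and Lgr5 with Lgr6 had -0.25.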

How the data were processed

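Single-cell RNA was counted in 2 libraries of 1 group (10x Chromium 3′ kit v3, per the labels' protocols). The deposited values are raw UMI counts per gene and barcode, made by the authors with Cell Ranger 3.1.0 against mm10, per the submitters' processing notes, which also list Seurat 3.1. No source used here names the gene models. GENCODE M21 held 30934 of the 31053 identifiers. The totals were 52344178 and 38678103 UMIs over 6592 and 5080 barcodes.

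Kept barcodes had 1000 or more genes and no more than 10% of UMIs from mt- genes (3918 and 3041). Scrublet's automatic threshold called 0 cells, so the top 0.8% per 1000 barcodes by score was called, and 215 and 131 kept cells were removed. Counts were split at random (probability 0.5, seed 1). One part was clustered with scanpy 1.11.5 (2000 variable genes without the 5 genes or the pathway lists, 30 components, 20 neighbours, Leiden resolution 0.5). The other part was summed per cluster and library where a cluster had 20 or more cells in each library and fitted with edgeR 4.0.16 (R 4.3.3, TMM, filterByExpr, 22 sums, 10 residual degrees of freedom). On counts simulated for cluster 4 against the other non-cycling clusters (10374 genes) it recovered 59 of 100 genes changed 2-fold and 98 of 100 changed 4-fold. Detection used all UMIs thinned to 5000 per cell, leaving out 184 and 182 shallower keratinocytes, with a floor of 3 counts for 0. Ambient RNA was not corrected for.

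Library was a term in the fit because the clusters compared come from the same 2 libraries. Alternatives were DESeq2 1.42.0, its size factors, no low-count filter, all UMIs, no library term, resolutions 0.3 and 0.8, the pathway genes allowed in clustering, doublets kept and each library left out. The members and lists were chosen with earlier results of these data known. Named genes are the 5 members, the 3 of each list with the largest difference among those called jointly, and the 5 genes most like each member. Comparisons of clusters 5 and 9, of each cycling cluster with its nearest, the values in finer clusters, the makeup weighting and the CCAAT word were added after seeing the data.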

Additional observations from a re-analysis of the deposited data

Results flagged for a closer look

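The barcodes left out by the gene and mitochondrial limits, which no comparison used, also held the receptors above what a count of 0 allows. Lgr5 was found in 23.7% of the 2674 left-out barcodes of replicate 1 and 25.6% of the 2039 of replicate 2, at medians of 1858 and 1413 UMIs. Lgr6 was found in 0.860% and 5.10% of them, so that replicate 2 was again the higher library.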

How the results depend on the processing

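The count of members called in the joint test (4 of 5) stayed within 1.5 times in every alternative run, and the 12 single-state calls came to 9 to 14. Runs that formed new clusters counted only states matched to a main cluster by shared cells, which held 10 or 11 of the 12 calls. Cluster 3 had no match in any of these runs, and cluster 2 had none at resolution 0.8 or with doublets kept. The Lgr5 rises of these clusters were thus not followed there. The 1 member called between cycling and non-cycling cells became 0 with DESeq2, with no replicate block (no library term), at resolution 0.8 and with doublets kept, and 2 with the pathway genes allowed in clustering. The causes were not tested. Of 177 alternative values for the 23 called member differences, 160 kept their direction and call, 17 lost the call and 0 reversed, and of 38 values with a library left out 1 reversed. That one was Lgr6 in cluster 5, at -1.36 without replicate 2 and 2.66 without replicate 1. The first value is largely set by the prior count, since replicate 1 had 0 held-out Lgr6 UMIs in that cluster. Paired by library, the calls of Lgr6 in clusters 1 and 11, Lgr4 in cluster 1, Lgr5 in cycling cells and Lgr5 in cluster 8 over cluster 2 needed the block. The ratio of observed to expected Lgr5 and Lgr6 cells, mean of both libraries, was 0.642 at 3000 UMIs, 0.847 at 10000 UMIs, 1.20 at 2 UMIs per gene and 0.649 to 1.16 over 20 other seeds, so its side of 1 is not settled. Detection shares rose from 3000 to 10000 UMIs, and the second setting left out 1914 of 3631 and 1547 of 2854 keratinocytes. At 3000 and 10000 UMIs and then without thinning, they were 16.9%, 45.03% and 44.8% for Lgr4, 27.3%, 57.0% and 56.6% for Lgr5, 1.88%, 6.71% and 7.33% for Znrf3, and 2.28%, 6.81% and 6.99% for Rnf43, which was 3.28% with doublets kept. Lgr6 in replicate 1 rests on 21 positive cells, and the ligase values rest on low counts.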
